A study of Mus musculus with 147 samples.

Results

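Transcripts of 39 cell cycle genes were followed through sorted mouse macrophages and monocytes. The genes were taken by name as a list of DNA replication and mitosis genes, and all 39 were found among the 50686 gene IDs that both deposited count tables share. Of these, 24 act in mitosis (chromosome condensation, the spindle, its checkpoint and cytokinesis) and 15 act in S phase (origin licensing, the replication fork and the supply of deoxynucleotides).

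The study sequenced polyA RNA of 147 libraries. In the refeeding experiment, 110 libraries of adipose tissue macrophages, colonic macrophages, Kupffer cells of the liver, microglia of the brain, pancreatic islet macrophages, peritoneal macrophages and monocytes came from mice refed for 2 h after a 12 h fast or from mice fasted for 12 h. In the diet experiment, 37 libraries of peritoneal macrophages, islet macrophages and microglia came from 3 groups of mice. One was fed a high fat diet (HFD) for 8 weeks and given streptozotocin at week 4, which kills beta cells (HFD with STZ), another had HFD alone over the same 8 weeks, and the third ate a normal diet (ND). Refed and fasted groups held 9 and 8 libraries in adipose tissue, colon, brain and monocytes, 7 and 6 in islets and liver, and 8 and 8 in the peritoneum. The HFD with STZ, HFD and ND groups held 5, 4 and 5 peritoneal libraries, 3, 4 and 4 islet libraries and 4, 4 and 4 microglia libraries. The sources used here give no strain, sex, age or sorting antibodies, and do not say whether a library is 1 mouse or a pool.

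Cells enter the cycle when D cyclins and their kinases release E2F factors, which switch on the S-phase genes that license origins, copy DNA and make nucleotides. Mitosis genes follow later, when FOXM1 and B-MYB complexes act on promoters that carry CCAAT boxes and a cell cycle homology region. Many tissue macrophages renew by slow division in place, whereas monocytes leave the bone marrow after their precursors have stopped dividing.

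Libraries of the refeeding experiment held 7915242 to 27315750 counts and those of the diet experiment 11349232 to 34466388. Input was 400 sorted cells for every refeeding library and for diet islet libraries, 100000 for diet peritoneal and 5000 for diet microglia libraries, so levels were compared within each experiment only. Marker lists were summed in CPM (counts of a gene per 1000000 counts of its library). The lists of monocytes, microglia, Kupffer, peritoneal and adipose macrophages passed 1000 CPM in every library of their label. The 5 monocyte markers, for example, summed to 8735 to 38235 CPM in monocytes and to at most 1538 CPM elsewhere. The microglia list also passed 1000 CPM in all 13 refeeding and all 11 diet islet libraries. So did the Kupffer list in all 16 refeeding and all 14 diet peritoneal libraries, and the adipose list in all 13 Kupffer libraries. The islet list did not separate islet from colonic macrophages, with up to 8013 CPM in islet and 8629 CPM in colonic libraries. It also passed 1000 CPM in 17 of 17 microglia, 15 of 17 adipose and 10 of 13 Kupffer libraries of the refeeding experiment. In the diet experiment it passed in 12 of 12 microglia libraries. The colonic list passed 1000 CPM in 16 of 17 colonic libraries and also in 13 of 13 Kupffer libraries. Colonic libraries also carried plasma cell markers (up to 102530 CPM) and pancreatic acinar enzymes (up to 163130 CPM), each above 1000 CPM in 14 of 17 libraries. Islet endocrine markers passed 1000 CPM in 11 of 13 refeeding islet libraries and endothelial markers in 11 of 13 Kupffer libraries. Megakaryocyte and platelet markers passed it in 14 of 17 adipose, 12 of 16 refeeding peritoneal and 14 of 14 diet peritoneal libraries. No library was left out for these lists in these populations. Results were also computed without libraries above 1000 CPM on other lists, chosen for each population. That limit was passed on the list of intestinal epithelium in refed colonic libraries 7 and 8 and fasted colonic library 5, on the neutrophil or B cell lists in refed microglia libraries 5 and 6 and HFD microglia libraries 2 and 3, and on the plasma cell list in HFD and ND islet library 5. In 4 libraries labelled refed, 2 of islet macrophages and 2 of Kupffer cells, a free-text note calls the mice fasted; they were kept as labelled. Leaving them out gave 0 members called on refeeding in both populations, as with them, and mean mitosis scores of 0.65 ± 0.31 in refed islet macrophages and 1.55 ± 0.72 in refed Kupffer cells (SD, n = 5 each).

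Transcripts of the mitosis genes were most abundant in peritoneal, adipose and colonic macrophages and scarcest in microglia, monocytes and islet macrophages. The mitosis score, the mean over the 24 genes of log2(CPM + 1), averaged 3.08 ± 1.10 in refed and 2.97 ± 0.92 in fasted peritoneal macrophages (SD, n = 8 each). In adipose tissue macrophages it averaged 2.37 ± 1.07 in refed (n = 9) and 3.16 ± 0.66 in fasted mice (n = 8), and in colonic macrophages 2.05 ± 1.56 in refed (n = 9) and 2.97 ± 1.05 in fasted mice (n = 8). These 3 populations overlapped widely. Kupffer cells lay below them, at 1.61 ± 0.65 in refed (n = 7) and 1.46 ± 0.68 in fasted mice (n = 6). Islet macrophages averaged 0.78 ± 0.35 in refed (n = 7) and 1.19 ± 0.38 in fasted mice (n = 6), monocytes 0.70 ± 0.33 in refed (n = 9) and 0.93 ± 0.59 in fasted mice (n = 8), and microglia 0.62 ± 0.31 in refed (n = 9) and 0.75 ± 0.52 in fasted mice (n = 8). The ranges of these last 3 overlapped one another, whether the mice were refed or fasted. In these bulk libraries, more cells in cycle and more transcript per cycling cell cannot be told apart.

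**Figure D1:**
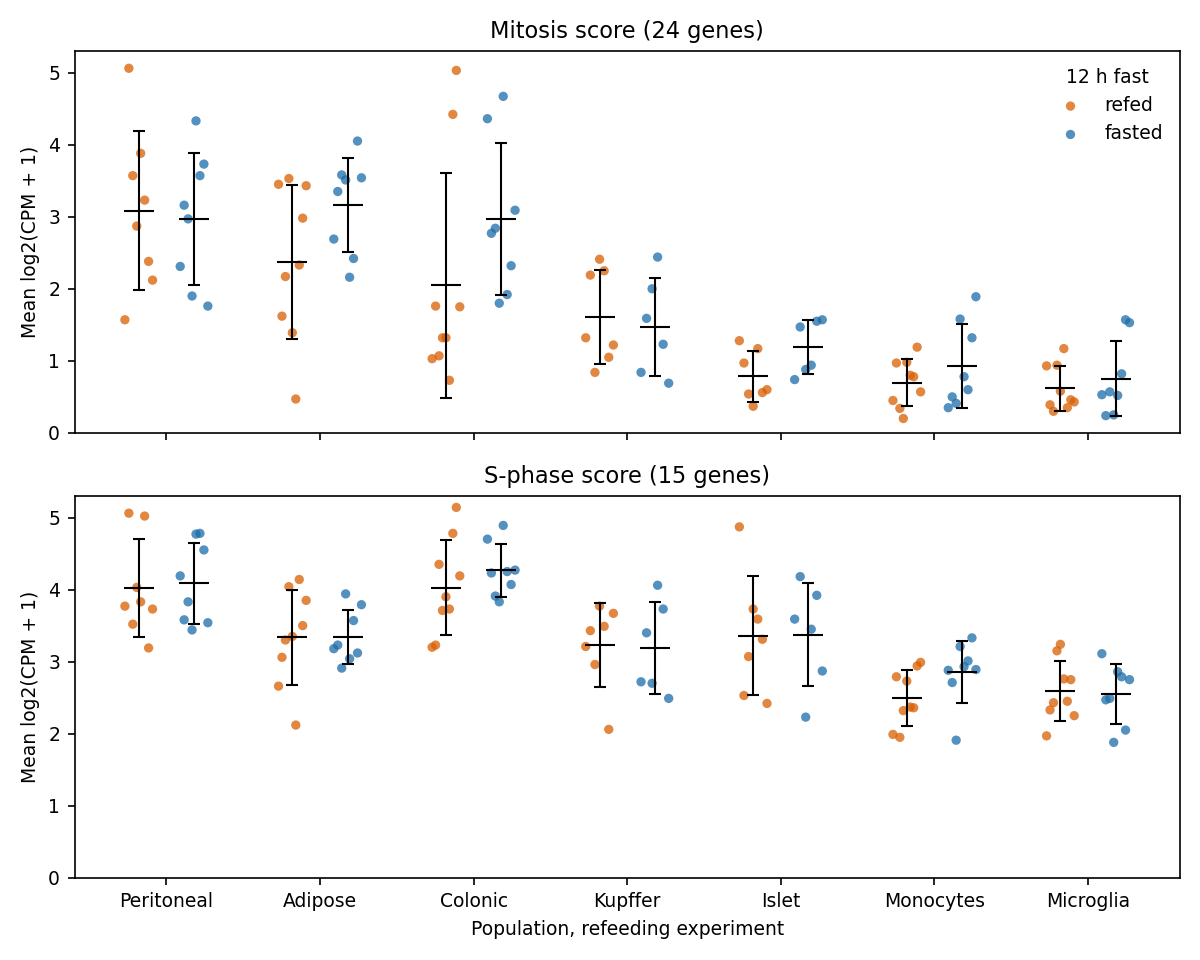
Mitosis score (upper plot) and S-phase score (lower plot) of every refeeding library, as the mean of log2(CPM + 1) over 24 and 15 genes, by population with refed left of fasted. Each point is 1 library, and the bars give the group mean ± SD. Mitosis scores ran from 0.20 in a refed monocyte library to 5.06 in a refed peritoneal library, while S-phase scores lay between 1.88 and 5.14.

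The S-phase score, the same mean over the 15 genes of DNA replication, varied less between populations. It averaged 4.02 ± 0.67 in refed and 4.08 ± 0.56 in fasted peritoneal macrophages and 4.03 ± 0.66 in refed and 4.27 ± 0.37 in fasted colonic macrophages. At the low end, microglia averaged 2.59 ± 0.42 in refed and 2.55 ± 0.42 in fasted mice, and monocytes 2.49 ± 0.39 in refed and 2.86 ± 0.43 in fasted mice. Adipose macrophages (3.33 ± 0.66 refed, 3.35 ± 0.37 fasted), islet macrophages (3.36 ± 0.83 refed, 3.37 ± 0.72 fasted) and Kupffer cells (3.23 ± 0.58 refed, 3.18 ± 0.64 fasted) lay between. Most S-phase genes had at least 1 read in every population, with group medians of 10 to 15 of the 15 genes per library. Of the 24 mitosis genes, by contrast, the median library held reads for 23 in refed and 22 in fasted peritoneal macrophages but for 7 in refed and 7.5 in fasted microglia.

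Among the mitosis genes, Mki67 encodes the Ki-67 protein that coats mitotic chromosomes and is absent from resting cells. In peritoneal macrophages the lowest, median and highest Mki67 levels were 5.60, 24.3 and 74.3 CPM in refed mice and 12.2, 27.9 and 73.8 CPM in fasted mice. Adipose macrophages had 9.92, 36.9 and 74.1 CPM in refed and 2.03, 48.6 and 107.96 CPM in fasted mice, and colonic macrophages 24.7, 42.3 and 51.03 CPM in refed and 12.4, 46.97 and 116.9 CPM in fasted mice. Islet macrophages stood with these rather than with monocytes for this gene, although their mitosis scores were low. The islet values were 13.7, 28.5 and 38.8 CPM in refed and 4.54, 34.6 and 76.9 CPM in fasted mice. Monocytes had 0, 6.47 and 21.04 CPM in refed and 0.166, 2.59 and 17.4 CPM in fasted mice. Microglia were at or near 0, with 0, 0.0664 and 0.843 CPM in refed and 0, 0 and 18.2 CPM in fasted mice. The highest refed microglia library thus lay below every refed peritoneal, adipose, colonic and islet library.

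Other mitosis genes did not share the islet pattern of Mki67. Top2a, the topoisomerase that untangles sister chromatids, was at a median of 24.6 CPM in refed and 32.9 CPM in fasted peritoneal macrophages and 27.5 CPM in refed and 32.1 CPM in fasted adipose macrophages. Its medians in islet macrophages were 0 CPM in refed and 2.29 CPM in fasted mice. Cdk1, the kinase that drives entry into mitosis, had medians of 12.8 CPM in refed and 15.3 CPM in fasted peritoneal macrophages, and of 0 CPM in both refed and fasted islet macrophages. Bub1, a kinase of the spindle checkpoint, had no read in any of the 17 microglia libraries, against medians of 6.66 CPM in refed and 4.26 CPM in fasted peritoneal macrophages. A few members departed from the general order. Kif23, a motor of the central spindle needed for cytokinesis, had reads in all 13 Kupffer libraries, with medians of 25.6 CPM in refed and 14.8 CPM in fasted mice, against 6.07 CPM in refed and 6.01 CPM in fasted peritoneal macrophages, a difference that did not pass the test below. Aurkb, the kinase of the chromosomal passenger complex, had medians of 5.75 CPM in refed and 11.5 CPM in fasted monocytes, close to the 11.1 CPM in refed and 10.1 CPM in fasted peritoneal macrophages.

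**Figure D2:**
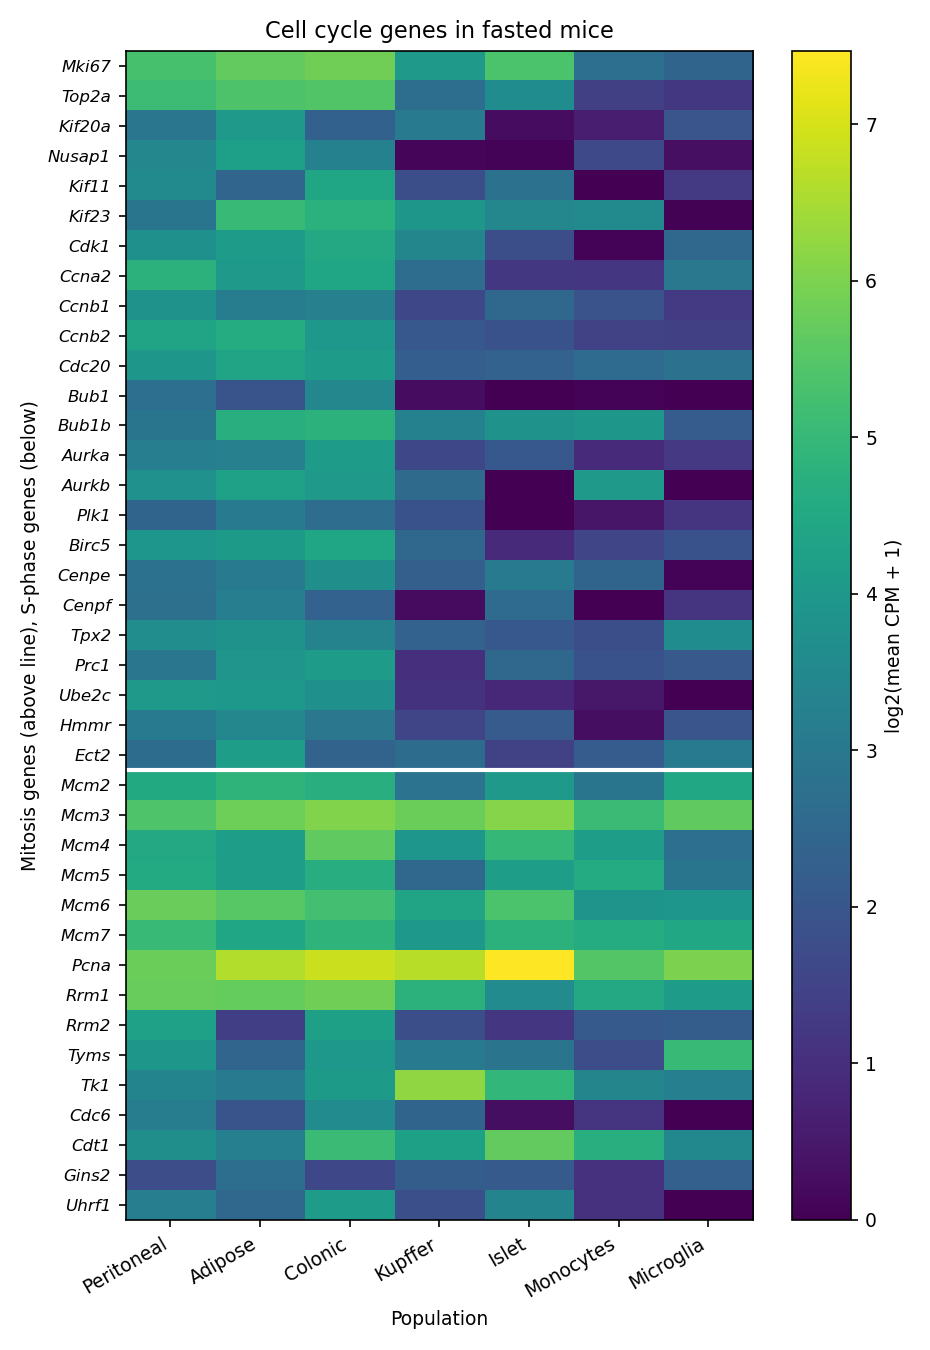
Level of each of the 39 genes (rows) in the fasted libraries of each population (columns), as log2 of the group mean CPM + 1 in colour, with mitosis genes above the line and S-phase genes below it. The mitosis block is brightest in peritoneal, adipose and colonic macrophages. Counts are not divided by gene length, so colours compare populations within a row and not genes with each other.

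Among the S-phase genes, Pcna, the sliding clamp of the replication fork that also serves DNA repair, had its highest medians in islet macrophages, although refed microglia library 5, at 282.6 CPM, lay above every refed and fasted islet library. Islet libraries ran from 107.4 to 190.7 CPM with a median of 173.2 CPM in refed mice and from 118.6 to 232.4 CPM with a median of 176 CPM in fasted mice. Peritoneal macrophages had lower values, from 34.04 to 74.2 CPM with a median of 52.1 CPM in refed mice and from 30.3 to 77.9 CPM with a median of 50.2 CPM in fasted mice, and neither group overlapped its islet counterpart. Mcm3, a subunit of the MCM helicase, had medians of 22.8 to 69.4 CPM across the 7 refed and 29.6 to 76.9 CPM across the 7 fasted populations. Mcm2 had medians of 21.1 CPM in refed and 18.6 CPM in fasted peritoneal macrophages, against 0.0951 CPM in refed and 7.97 CPM in fasted microglia, where the highest library reached 38.5 CPM in refed and 96.3 CPM in fasted mice. Rrm2 was sparse, with medians of 11.8 CPM in refed and 12.7 CPM in fasted colonic macrophages, 7.13 CPM in refed and 13.7 CPM in fasted peritoneal macrophages, and below 1 CPM in the other 5 populations. Tk1, the thymidine kinase of the salvage pathway, was highest in Kupffer cells, with medians of 68.05 CPM in refed and 70.4 CPM in fasted mice, against at most 16.6 CPM in the other refed and 32.4 CPM in the other fasted populations. Refed Kupffer libraries passed the test against refed monocytes (adjusted p 0.0433) and microglia (adjusted p 0.00777), and fasted ones against fasted adipose macrophages (adjusted p 0.0499), by edgeR's quasi-likelihood test described next. Tk1 overlaps Afmid on the other strand, and Afmid had its highest medians in Kupffer cells too, at 14.04 CPM in refed and 13.2 CPM in fasted mice. In the other populations its medians were at most 2.45 CPM in refed and 3.15 CPM in fasted mice, and reads of both genes cannot be told apart if counting ignored strand.

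Tests across populations called the members no more often than other genes. Among refed libraries, edgeR's quasi-likelihood test (Benjamini-Hochberg adjusted p below 0.05 over all genes tested) called 13 of 39 members as different somewhere among the 7 populations, against 50.5% of all genes. Among fasted libraries it called 19 of 39 members, against 49.4% of all genes. In both, Pcna (adjusted p 2.82e-07 refed, 2.03e-08 fasted), Mki67 (5.6e-08 refed, 0.00928 fasted), Bub1 (2.21e-07 refed, 0.000124 fasted) and Kif23 (0.000118 refed, 0.000196 fasted) passed.

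Single pairs of populations showed where the mitosis genes parted. Microglia had 8 members lower than peritoneal macrophages in refed mice, where 13.5% of all genes were lower, and 12 in fasted mice, where 13.4% were. The fasted 12 were Ube2c, Aurkb, Kif23, Cdc6, Top2a, Bub1, Uhrf1, Cenpe, Mki67, Nusap1, Ccnb2 and Ccnb1. Of these, Cdc6, which loads the MCM helicase, and Uhrf1, which keeps DNA methylation through replication, are the S-phase genes. Mki67 passed with an adjusted p of 1.88e-08 in refed and 0.0128 in fasted mice, with the near-zero microglia levels given above. Of 52 genes on a further list of mitosis genes, 15 of 50 tested were lower in refed and 24 of 51 tested in fasted microglia. Of 39 on a further list of replication genes, 7 were lower in each.

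Monocytes had 10 members lower than peritoneal macrophages in refed mice, where 9.57% of all genes were lower, and 9 in fasted mice, where 8.04% were. Mki67 was among the fasted 9, with a log2 change of -3.42 (SE 1.20, adjusted p 0.0458), and missed the threshold in refed mice (log2 change -1.67, adjusted p 0.164). Adipose and colonic macrophages differed by 0 members, against 12.0% of all genes in refed and 11.3% in fasted mice. Some counts moved without the libraries above 1000 CPM of intestinal epithelium, neutrophil or B cell markers. Without refed colonic libraries 7 and 8 and the refed microglia libraries 5 and 6, monocytes had 3 members lower than colonic macrophages in place of 9 (17.7% of all genes were lower with all libraries). Colonic macrophages then had 5 members lower and 1 higher than peritoneal macrophages, in place of 0 lower and 1 higher (21.1% of all genes called with all libraries), and adipose macrophages 9 higher than microglia in place of 5 (13.4% higher). The part of RNA from other cells in these counts was not tested.

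In the other pairs, the share of members called exceeded that of all genes in some cases only. It was near or below that of all genes for refed microglia against adipose and colonic macrophages. The same held for monocytes against microglia, and for adipose and colonic against peritoneal macrophages, in refed and fasted mice. Those pairs therefore do not set the members apart from other genes. Adipose macrophages had 10 members higher than monocytes in refed (12.8% of all genes higher) and 10 in fasted mice (9.95%), and 5 higher than microglia in refed (13.4%) and 12 in fasted mice (12.1%). Fasted monocytes had 10 members lower than fasted colonic macrophages (14.5%), and microglia had 5 lower than colonic macrophages in refed (16.8%) and 13 in fasted mice (16%). Monocytes and microglia differed in 7 members in refed mice, 2 of them higher in monocytes, and in 8 in fasted mice, 6 of them higher in monocytes, against 25.5% of all genes in each. Adipose and peritoneal macrophages differed in 2 members in refed (16%) and 1 in fasted mice (15.7%), and colonic and peritoneal macrophages in 1 in refed (21.1%) and 1 in fasted mice (21.8%).

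Islet macrophages had 7 members called against peritoneal macrophages in refed mice (20.9% of all genes) and 7 in fasted mice (20.3%), shares near those of all genes. Pcna was higher, with a log2 change of 1.65 (SE 0.32, adjusted p 9.59e-05) in refed and 1.78 (SE 0.28, adjusted p 2.18e-06) in fasted mice. The refed 6 that were lower were Bub1, Ccnb1, Ccna2, Hmmr, Kif23 and Aurka, and the fasted 6 were Aurkb, Bub1, Plk1, Nusap1, Kif20a and Ube2c. Pcna was also higher in colonic than in peritoneal macrophages, by 1.15 (SE 0.31, adjusted p 0.00351) in refed and 1.11 (SE 0.26, adjusted p 0.00104) in fasted mice. Adipose macrophages exceeded peritoneal ones in Pcna by 1.04 (SE 0.31, adjusted p 0.0118) in refed and 0.84 (SE 0.26, adjusted p 0.0195) in fasted mice, and both calls were lost when genes with low counts were kept (adjusted p 0.0735 refed, 0.204 fasted).

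Brakes and starters of the cycle followed other orders. Cdkn1a, which encodes the kinase inhibitor p21, ran from 218.6 to 736.4 CPM with a median of 621.8 CPM in refed and from 226.6 to 692.3 CPM with a median of 500.0 CPM in fasted islet macrophages. Peritoneal macrophages had 132.1 to 521.1 CPM with a median of 222.2 CPM in refed and 80.7 to 145.7 CPM with a median of 133.3 CPM in fasted mice. Islet macrophages were higher than peritoneal ones in fasted mice (log2 change 2.01, SE 0.36, adjusted p 2.64e-05) but not past the threshold in refed mice (1.01, SE 0.46, adjusted p 0.12). Microglia had a Cdkn1a median of 26.1 CPM in refed and 23.7 CPM in fasted mice, and monocytes 48.97 CPM in refed and 51.8 CPM in fasted mice. Islet macrophages and microglia, both low in mitosis score, thus stood at opposite ends in Cdkn1a. Ccnd1, the D cyclin that answers growth factors, had medians of 108.97 CPM in refed and 130.5 CPM in fasted microglia, against 221.3 CPM in refed and 141.1 CPM in fasted peritoneal macrophages (adjusted p 0.349 refed, 0.849 fasted). Monocytes had far less, at medians of 6.29 CPM in refed and 17.2 CPM in fasted mice (log2 change against peritoneal -5.06, SE 0.77, adjusted p 1.5e-06 refed, and -3.25, SE 0.71, adjusted p 0.0007 fasted).

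The 2 groups of genes also differ in the sequence at their start sites, which the choice of genes did not use. RefSeq promoter windows on GRCm38.p6, from 250 bases before to 50 after the start, were at hand for 33 of the 39 genes, 20 of mitosis and 13 of S phase. Of these genes 4 had 2 windows, and a motif in either window was counted. On both strands, the core of the cell cycle homology region, TTTGAA, lay in 15 of 20 mitosis promoters (75%) and in 1 of 13 S-phase promoters (7.69%, Mcm2), against 20.2% of the promoters of all 27025 genes. An E2F site, spelled TTTCCCGC, TTTCGCGC, TTTGCCGC or TTTGGCGC, lay in 1 of 20 mitosis promoters (5.0%, Cdk1) and in 7 of 13 S-phase promoters (53.8%), against 2.6% of all genes. CCAAT lay in 18 of 20 mitosis and 9 of 13 S-phase promoters, against 41.1% of all genes, and TTTGAA together with CCAAT in 15 of 20 mitosis promoters (75%), 1 of 13 S-phase promoters and 7.97% of all genes. In 14 of the 20 mitosis genes a TTTGAA began within 50 bases of the start. Matches to different motifs or on different strands may overlap, and a match in these letters is not a measured binding site.

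The windows of 4 mitosis and 2 S-phase genes show both layouts, with every match to TTTGAA or an E2F site, and every CCAAT, on either strand, in capitals and the rest in lower case. Cdc20, the activator of the anaphase-promoting complex (chr4:118437294-118437593, minus strand), Plk1, a kinase of spindle assembly (chr7:122159185-122159484, plus strand), Ccnb2, a cyclin partner of Cdk1 (chr9:70421505-70421804, minus strand), and Cdk1 (chr10:69352863-69353162, minus strand) each hold TTTGAA within 100 bases of the start and at least 1 CCAAT. Mcm5 (chr8:75109259-75109558, plus strand) and Mcm6 (chr1:128359656-128359955, minus strand), subunits of the helicase, carry E2F sites, and in each a run of 12 bases holds one site on each strand.
Cdc20: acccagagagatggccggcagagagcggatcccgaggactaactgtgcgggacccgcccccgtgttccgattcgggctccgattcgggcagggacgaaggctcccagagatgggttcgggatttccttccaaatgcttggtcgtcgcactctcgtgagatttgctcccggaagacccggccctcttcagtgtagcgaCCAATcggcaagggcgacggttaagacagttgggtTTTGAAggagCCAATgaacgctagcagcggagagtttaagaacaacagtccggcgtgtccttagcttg
Plk1: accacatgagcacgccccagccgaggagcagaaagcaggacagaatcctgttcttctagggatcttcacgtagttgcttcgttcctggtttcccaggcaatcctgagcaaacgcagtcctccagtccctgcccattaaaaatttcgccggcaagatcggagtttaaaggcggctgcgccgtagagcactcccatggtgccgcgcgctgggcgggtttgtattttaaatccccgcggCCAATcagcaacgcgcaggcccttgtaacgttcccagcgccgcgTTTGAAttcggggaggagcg
Ccnb2: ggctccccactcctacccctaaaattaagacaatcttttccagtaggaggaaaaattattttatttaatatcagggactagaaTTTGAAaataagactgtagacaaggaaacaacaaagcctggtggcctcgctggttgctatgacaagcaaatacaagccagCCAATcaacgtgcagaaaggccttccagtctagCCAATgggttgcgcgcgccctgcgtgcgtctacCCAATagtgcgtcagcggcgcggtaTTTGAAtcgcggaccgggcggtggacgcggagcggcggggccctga
Cdk1: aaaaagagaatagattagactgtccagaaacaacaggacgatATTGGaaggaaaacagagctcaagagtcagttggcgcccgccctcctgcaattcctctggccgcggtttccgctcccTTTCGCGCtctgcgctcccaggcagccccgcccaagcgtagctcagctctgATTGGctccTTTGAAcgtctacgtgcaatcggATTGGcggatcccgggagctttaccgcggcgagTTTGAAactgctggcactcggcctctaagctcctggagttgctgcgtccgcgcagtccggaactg
Mcm5: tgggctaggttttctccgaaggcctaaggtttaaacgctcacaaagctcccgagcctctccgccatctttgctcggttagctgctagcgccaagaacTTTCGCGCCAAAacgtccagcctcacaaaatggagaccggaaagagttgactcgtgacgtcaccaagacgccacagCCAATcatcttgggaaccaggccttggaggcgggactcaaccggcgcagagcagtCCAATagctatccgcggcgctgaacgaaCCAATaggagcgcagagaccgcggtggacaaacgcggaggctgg
Mcm6: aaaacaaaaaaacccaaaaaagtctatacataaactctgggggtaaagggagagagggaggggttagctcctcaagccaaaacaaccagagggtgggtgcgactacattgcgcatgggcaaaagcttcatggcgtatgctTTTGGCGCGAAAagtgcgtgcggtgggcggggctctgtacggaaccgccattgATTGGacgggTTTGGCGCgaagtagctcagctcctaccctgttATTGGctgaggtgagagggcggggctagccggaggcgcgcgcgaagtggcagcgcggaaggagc

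**Figure D3:**
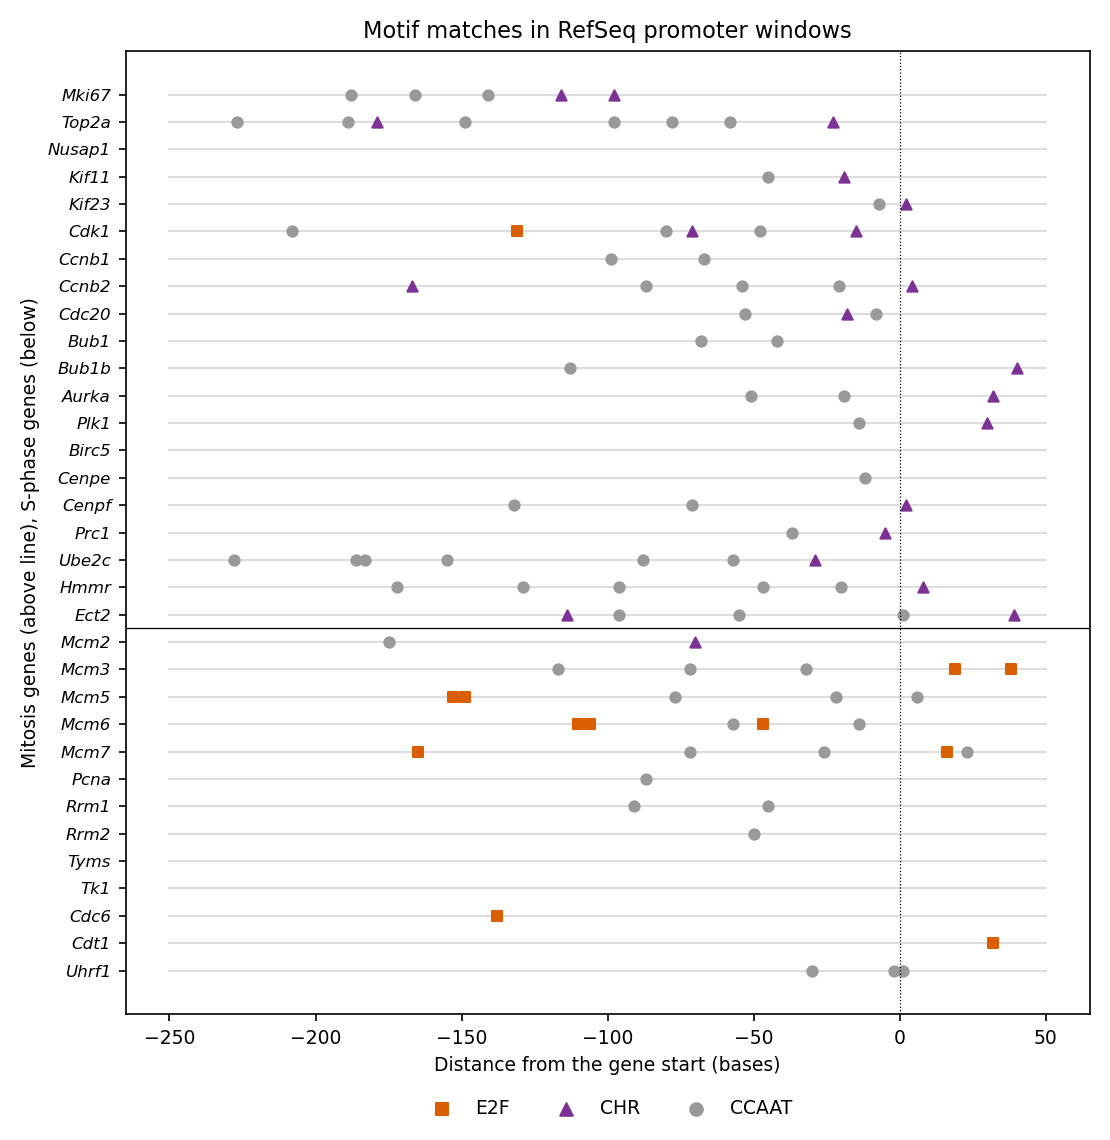
Positions of motif matches in RefSeq promoter windows of 33 genes, 1 row per gene with mitosis genes above the line, against distance from the gene start in bases. For the 4 genes with 2 windows only the first is drawn, so the E2F site of Uhrf1 is not shown. Triangles mark TTTGAA (CHR), squares E2F sites and circles CCAAT, on either strand. Triangles cluster around the start in the mitosis rows, and all squares but the one of Cdk1 lie in S-phase rows.

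By edgeR's quasi-likelihood test, 0 of the 39 genes passed for refeeding (2 h) in any of the 7 populations. The members with enough reads to be tested numbered 39 in peritoneal macrophages, 37 in colonic, 36 in adipose, 27 in Kupffer cells, 19 in islet macrophages, 14 in monocytes and 11 in microglia. Of all genes tested, 0.432% were called in peritoneal macrophages (49 of 11331) and 0% in the other 6 populations. DESeq2, an alternative count model, called 3 members in colonic, 4 in islet, 2 in Kupffer, 1 each in adipose, monocyte and microglia and 0 in peritoneal libraries. Its share of all genes is not given here, so these counts do not set the members apart from other genes. At an unadjusted p below 0.05 there were 1 of 36 members in adipose macrophages (5.16% of all genes), 2 of 37 in colonic macrophages (2.59%) and 1 of 19 in islet macrophages (2.42%). There were 0 in monocytes (2.65%), microglia (2.59%), Kupffer cells (3.27%) and peritoneal macrophages (11%). In simulated colonic libraries of this size the test found 5.32% of genes changed by a log2 of 1 and 40% of those changed by 2, so most changes of either size in a single gene would have been missed there.

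In peritoneal macrophages, where every member was tested, each of the 6 example genes had a log2 change smaller than its SE. The log2 changes were -0.37 for Mki67 (SE 0.46, adjusted p 0.872), -0.35 for Top2a (SE 0.69, adjusted p 0.942) and 0.37 for Cdk1 (SE 0.81, adjusted p 0.947). Among S-phase genes they were -0.14 for Mcm2 (SE 0.33, adjusted p 0.951), -0.02 for Pcna (SE 0.23, adjusted p 0.993) and -0.40 for Rrm2 (SE 0.82, adjusted p 0.942). Pcna, which had reads throughout, was the most tightly measured, and its log2 changes in the other 6 populations ran from -0.40 (SE 0.25) in Kupffer cells to 0.21 (SE 0.34) in microglia.

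Adipose tissue macrophages of refed mice had lower mitosis scores in each cohort, although no gene passed. Their mitosis score differed by -0.79 between refed and fasted mice (pooled SD 0.90) over 4 cohorts, by -0.48, -0.70, -1.37 and -0.88. Lowest, median and highest were 0.47, 2.33 and 3.53 in refed against 2.16, 3.43 and 4.05 in fasted mice, so the groups overlapped. The S-phase score of the same libraries differed by -0.01 (pooled SD 0.54). Ccnb2, for example, had 0, 11.3 and 22.3 CPM in refed and 0.139, 22.8 and 56.8 CPM in fasted adipose macrophages, and Cdk1 had 0, 2.69 and 34.9 CPM in refed and 0, 12.8 and 52.1 CPM in fasted ones. Over the 36 members tested the median log2 change was -0.40, against about 0 over all genes tested. Of 33 other mitosis genes tested, 8 were higher and the median log2 change was -0.81, while the 24 other replication genes tested had a median of -0.02.

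In colonic macrophages the mitosis score differed by -0.92 (pooled SD 1.35), yet single libraries set much of it. The score was lower in refed mice in cohorts 1 to 3, by -2.17, -1.12 and -2.27, and higher in cohort 4, by 1.03. The 4 highest libraries were refed 7 and 8 (4.42 and 5.03) and fasted 1 and 5 (4.36 and 4.67), while the other refed libraries lay between 0.73 and 1.76. Intestinal epithelium markers summed to 2838 and 2932 CPM in refed libraries 7 and 8 and to 1293 CPM in fasted library 5, but to 51.7 CPM in fasted library 1; the part of epithelial RNA in these scores was not tested. Without the 3 libraries above 1000 CPM of intestinal epithelium markers, the members' median log2 change was -0.84, against -0.98 with them.

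Elsewhere the differences in score lay near or below the spread. Islet macrophages differed by -0.41 in mitosis score (pooled SD 0.36; lower in 3 of 4 cohorts), monocytes by -0.23 (0.47), microglia by -0.13 (0.42), Kupffer cells by 0.15 (0.66) and peritoneal macrophages by 0.12 (1.02). The S-phase score of monocytes was lower in refed mice in all 4 cohorts, by -0.41, -0.43, -0.42 and -0.35, and by -0.36 in all (pooled SD 0.41). A test of whether the refeeding effect differed among the 7 populations called 2 of 39 members, the kinetochore motor Cenpe (adjusted p 0.0151) and Uhrf1 (adjusted p 0.0233), against 10.1% of all genes. Both are sparse genes whose reads came from few libraries. Cenpe had its highest value of 21.8 CPM in a refed and 0.293 CPM in a fasted microglia library, but 0.115 CPM in a refed and 28.1 CPM in a fasted monocyte library. Uhrf1 reached 28.6 CPM in a refed microglia library and had 0 reads in fasted ones, and it had 0 reads in refed monocytes and reached 8.55 CPM in a fasted library. The medians of both genes in these 4 groups were at or below 0.0568 CPM.

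Among the G1 cyclins, Ccnd3, a partner of CDK4 and CDK6, was higher in refed than in fasted peritoneal macrophages. Its lowest, median and highest levels were 261.3, 416.7 and 565.9 CPM in refed and 202.2, 257.9 and 299.8 CPM in fasted mice (log2 change 0.69, SE 0.11, adjusted p 0.0131). Bhlhe40, a transcription factor that sustains proliferation of peritoneal macrophages in mice, had 250.8, 376.1 and 446.0 CPM in refed and 106.3, 214.7 and 300.3 CPM in fasted mice (log2 change 0.94, SE 0.16, adjusted p 0.0186). Ccnd3 was the 1 gene called of 17 tested among G1 cyclins, kinases and E2F factors, against 0.432% of all genes, and Bhlhe40 is on the list of regulators of self-renewal. Both calls were lost with the replicate number, which is not the labelled cohort in the refeeding experiment, as a block in the model. None of 33 other replication genes, 46 other mitosis genes or 22 brakes passed, with Cdkn1a next to the threshold (log2 change 1.00, SE 0.21, adjusted p 0.0508). The 39 members had a median log2 change of 0.12 in the same libraries.

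In peritoneal macrophages of the diet experiment, HFD with STZ libraries held more transcript of most members than HFD and ND libraries, yet 0 of the 39 passed the test. The 5 HFD with STZ libraries, of cohorts 1 to 5, had mitosis scores of 5.48, 5.07, 5.85, 5.52 and 6.38, the 4 HFD libraries, of cohorts 1, 2, 4 and 5, had 4.80, 4.72, 4.30 and 5.35, and the 5 ND libraries, of cohorts 1 to 5, had 5.38, 5.01, 4.60, 4.09 and 3.96. HFD with STZ exceeded HFD in every shared cohort, by 0.68, 0.35, 1.21 and 1.04. It exceeded ND by 0.10 and 0.06 in cohorts 1 and 2 and by 1.25, 1.42 and 2.42 in cohorts 3 to 5. S-phase scores were 6.29, 5.74, 6.17, 6.17 and 6.42 in HFD with STZ, 5.54, 5.54, 5.38 and 5.74 in HFD and 6.21, 5.82, 5.38, 5.59 and 4.95 in ND libraries, in the same order of cohorts.

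**Figure D4:**
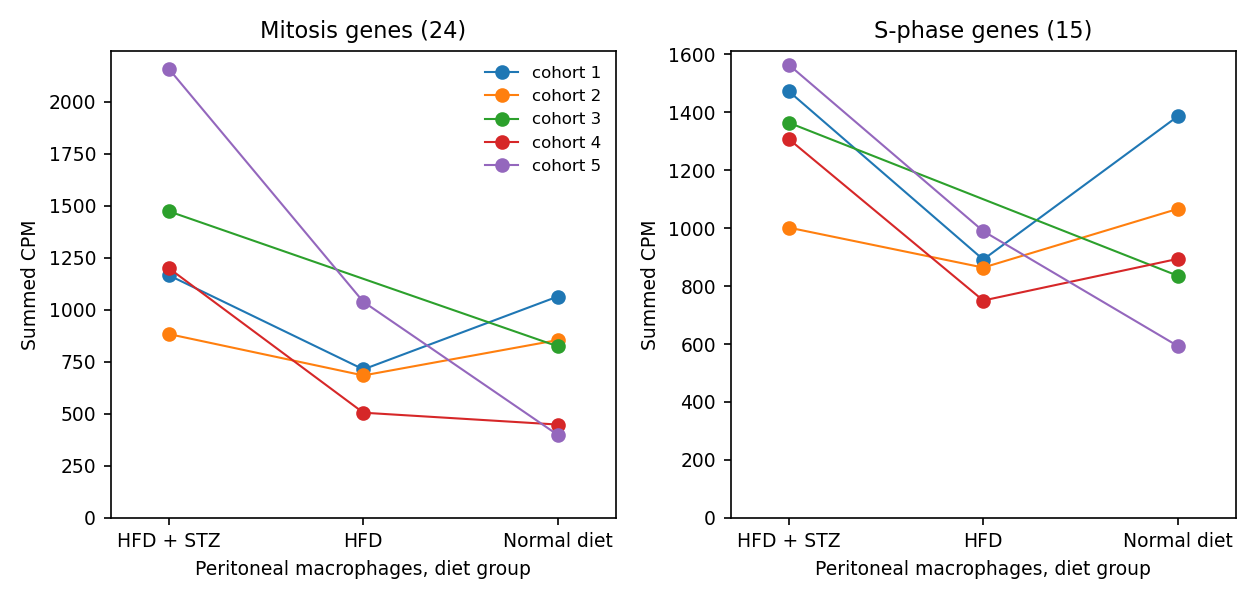
Summed CPM of the 24 mitosis genes (left plot) and of the 15 S-phase genes (right plot) in each peritoneal library of the diet experiment, by group, with lines joining libraries of the same cohort. Mitosis sums run from 883.3 to 2157 CPM in HFD with STZ, from 505.4 to 1038 CPM in HFD and from 398.8 to 1064 CPM in ND libraries.

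Mki67 had 74.04, 58.7, 98.2, 93.1 and 173.1 CPM in HFD with STZ, 39.2, 54.8, 40.1 and 73.8 CPM in HFD and 70.0, 64.9, 35.8, 39.7 and 37.4 CPM in ND libraries. The highest HFD library lay above the lowest HFD with STZ library only. Its log2 change was 0.98 against HFD (SE 0.31, adjusted p 0.35) and 0.94 against ND (SE 0.29, adjusted p 0.125). Top2a had 157.6, 136.4, 157.8, 157.1 and 250.1 CPM in HFD with STZ, 87.2, 90.6, 70.96 and 131.1 CPM in HFD and 116.02, 127.9, 55.7, 74.9 and 55.8 CPM in ND libraries, so every HFD with STZ library lay above every HFD and ND library. Its log2 change was 0.95 against HFD (SE 0.28, adjusted p 0.271) and 1.00 against ND (SE 0.26, adjusted p 0.073). Kif23 had 42.3, 34.9, 70.7, 50.5 and 94.6 CPM in HFD with STZ, 22.1, 30.996, 17.95 and 33.2 CPM in HFD and 36.9, 27.8, 15.6, 17.04 and 15.4 CPM in ND libraries (log2 change 1.19 against HFD, SE 0.35, adjusted p 0.28; 1.35 against ND, SE 0.32, adjusted p 0.0583). 

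Among S-phase genes, the helicase subunit Mcm7 had 123.8, 86.9, 116.5, 102.7 and 115.9 CPM in HFD with STZ, 59.3, 79.6, 56.3 and 70.4 CPM in HFD and 102.9, 82.9, 103.1, 70.5 and 48.7 CPM in ND libraries. HFD with STZ did not overlap HFD for this gene but did overlap ND (log2 change against HFD 0.65, SE 0.21, adjusted p 0.38). Rrm2, the small subunit of ribonucleotide reductase, had 92.5, 58.1, 71.6, 96.1 and 122.5 CPM in HFD with STZ, 46.9, 40.2, 35.6 and 58.5 CPM in HFD and 78.6, 60.1, 62.7, 32.6 and 28.8 CPM in ND libraries (log2 change against HFD 0.96, SE 0.30, adjusted p 0.34). Pcna was close in the 3 groups apart from the ND library of cohort 3, with 100.1, 90.9, 84.5, 111.8 and 115.3 CPM in HFD with STZ, 81.3, 81.4, 80.7 and 87.2 CPM in HFD and 89.9, 104.8, 203.5, 85.3 and 59.7 CPM in ND libraries (log2 change 0.19 against HFD, SE 0.26, adjusted p 0.916, and -0.01 against ND, SE 0.25, adjusted p 0.989).

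Cdk1 had 42.2, 39.9, 52.1, 53.6 and 74.7 CPM in HFD with STZ, 29.9, 27.8, 25.7 and 42.2 CPM in HFD and 45.99, 43.4, 64.1, 20.6 and 18.7 CPM in ND libraries (log2 change 0.66 against HFD, SE 0.32, adjusted p 0.656, and 0.50 against ND, SE 0.30, adjusted p 0.369). Its groups overlapped, and the ND library of cohort 3 was above all but 1 of the HFD with STZ libraries. Mcm2, which with its partners forms the helicase ring, had 89.8, 66.3, 87.6, 81.8 and 90.3 CPM in HFD with STZ, 61.2, 54.7, 51.7 and 53.9 CPM in HFD and 93.7, 68.03, 23.6, 60.8 and 39.97 CPM in ND libraries (log2 change 0.72 against HFD, SE 0.27, adjusted p 0.467, and 0.64 against ND, SE 0.25, adjusted p 0.192). HFD with STZ did not overlap HFD for Mcm2.

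Against HFD, all 39 members were higher in HFD with STZ, with a median log2 change of 0.80 where the median of all genes was 0.00. By edgeR's quasi-likelihood test 0 of 39 passed (0% of all 13225 genes did), and the smallest adjusted p was 0.271 for Top2a. At an unadjusted p below 0.05 there were 28 of 39 members, against 8.08% of all genes. DESeq2 called 1 member and limma with voom quality weights 5, with their shares of all genes not given here. Within cohorts, 35 of 39 were higher in HFD with STZ in all 4 shared cohorts (12.9% of genes with a mean of at least 1 CPM), and 14 did not overlap (3.55%).

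Against ND, 38 of 39 members were higher, with a median log2 change of 0.84 where that of all genes was -0.01, and 0 of 39 passed against 1.29% of all genes. The smallest adjusted p was 0.0583, for Kif23. An unadjusted p below 0.05 was reached by 28 of 39 members and by 19.6% of all genes. Mitosis genes had a median log2 change of 0.96 and S-phase genes one of 0.51. The largest log2 changes were those of Kif20a (1.59, SE 0.42, adjusted p 0.0796), Ect2 (1.5, SE 0.38, adjusted p 0.0727), Bub1 (1.47, SE 0.40, adjusted p 0.089) and Kif11 (1.44, SE 0.35, adjusted p 0.0654). Kif20a and Ect2 act in cytokinesis and Kif11 pushes the spindle poles apart. Higher values in all 5 cohorts were found for 13 members (8.88% of genes), and 2 did not overlap (2.80%). Other methods crossed the threshold, with 17 members called by DESeq2, 16 by limma with voom quality weights and 12 when genes with low counts were kept. The share of all genes that these methods called is not given here, so their counts do not set the members apart from other genes.

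**Figure D5:**
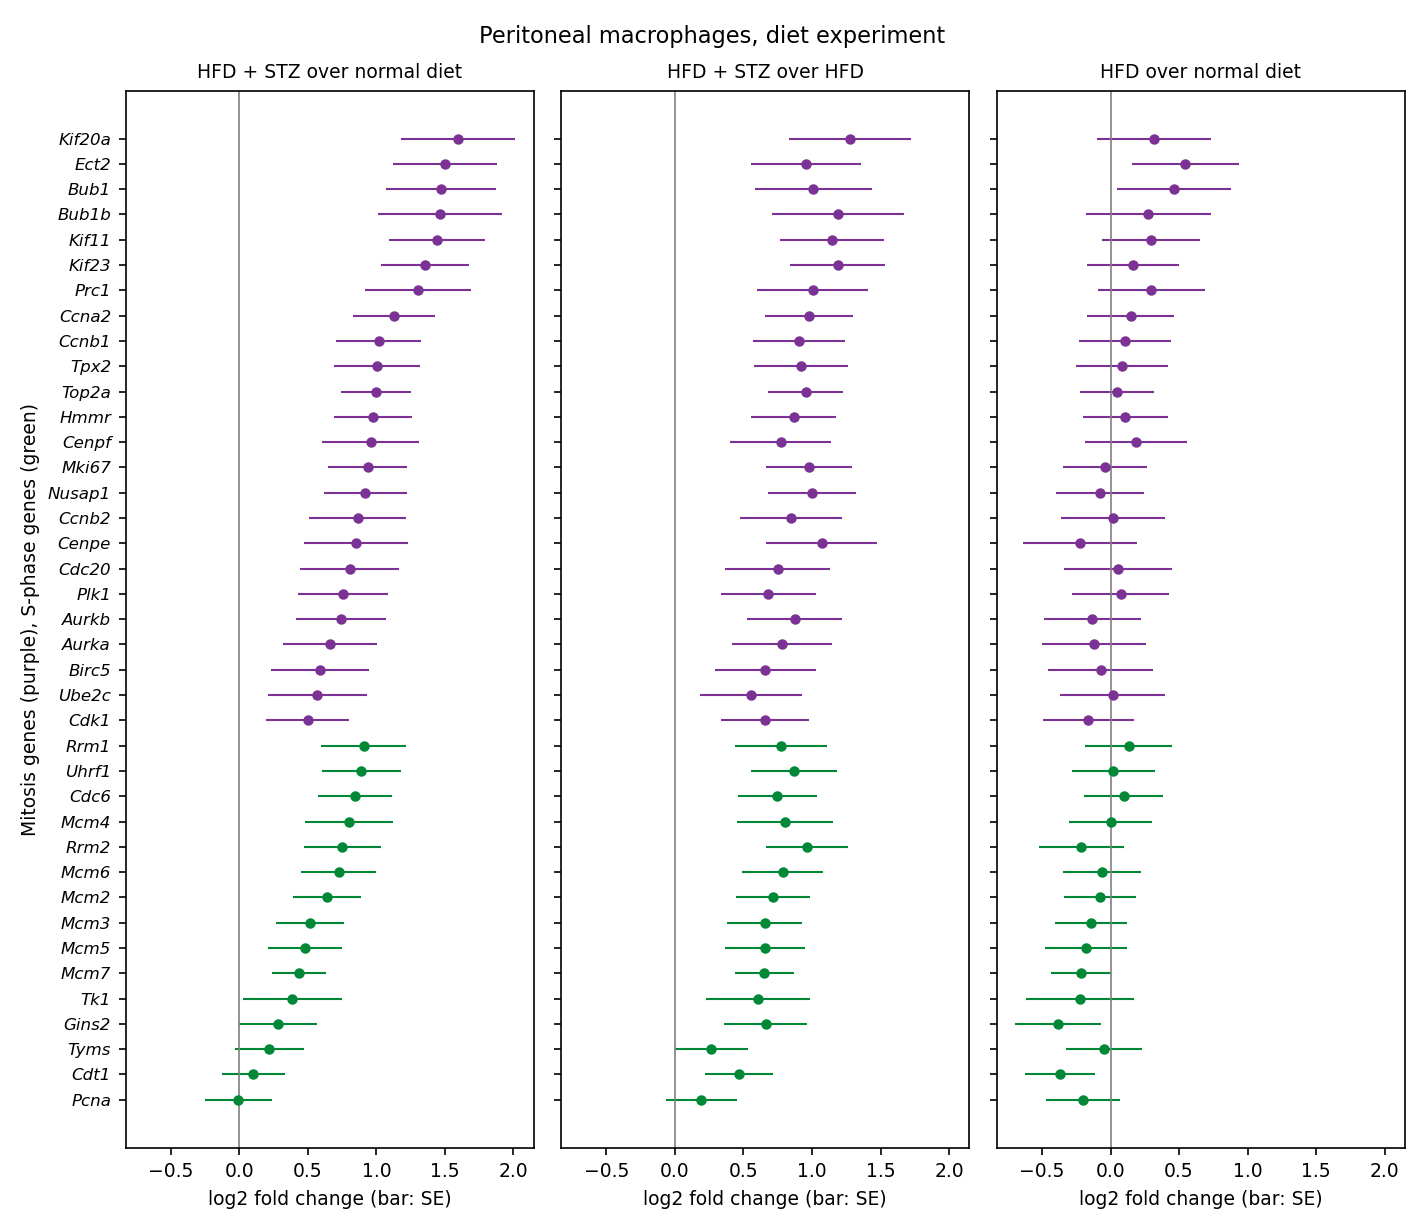
Log2 fold change of each of the 39 genes (rows, mitosis genes in purple above S-phase genes in green) in peritoneal macrophages of the diet experiment for HFD with STZ over ND, HFD with STZ over HFD and HFD over ND, from left to right. Points are edgeR estimates and bars are ± 1 SE. In the left and middle plots nearly all points lie right of 0, whereas in the right plot they lie between -0.38 and 0.55.

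HFD alone against ND gave small median log2 changes. In cohorts 1, 2, 4 and 5 the mitosis score of HFD differed from ND by -0.58, -0.28, 0.21 and 1.38. The S-phase score differed by -0.67, -0.28, -0.21 and 0.79, so the scores differed in sign in cohort 4 only. Of the mitosis genes 17 of 24 were higher (median log2 change 0.08), and of the S-phase genes 3 of 15 (median -0.14). Among other replication genes 6 of 39 were higher (median -0.26), and among other mitosis genes 25 of 52 (median -0.01). Over all 39 members the median log2 change was 0.02, from -0.38 for Gins2 to 0.55 for Ect2, with 20 of 39 higher. In this comparison 0 of 39 passed (0% of all genes). At an unadjusted p below 0.05 there were 0 members, against 3.54% of all genes, and DESeq2 called 0 as well. HFD lay above ND in all 4 shared cohorts in 0 members (8.58% of genes) and below it in 0 (8.03%).

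The ND library of cohort 3 stood apart from the other ND libraries in both directions. It had the highest ND values of Pcna (203.5 CPM, the others at most 104.8), Ccnb2 (80.1 CPM, the others at most 53.7) and Plk1 (36.1 CPM, the others at most 30.9). It had the lowest ND values of Rrm1 (27.8 CPM, the others at least 75.6), Mcm4 (15.4 CPM, the others at least 48.1) and Bub1b (4.01 CPM, the others at least 13.1). In this library the 19 members with longer transcripts had 0.60 times the summed CPM of the 20 shorter ones, against 0.94 to 1.13 in the other 13 peritoneal libraries of the diet experiment. Without it, HFD with STZ against ND had 0 members called and a median log2 change of 0.88. The part of transcript length in this library's values was not tested.

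Some macrophage markers also differed between these groups. Gata6, the transcription factor that defines resident peritoneal macrophages, averaged 12.9 ± 6.4 CPM in HFD with STZ, 24.4 ± 3.5 CPM in HFD and 32.2 ± 3.2 CPM in ND libraries (SD, n = 5, 4 and 5; log2 change against ND -1.42, SE 0.30, adjusted p 0.0419). Mrc1, the mannose receptor, averaged 241.3 ± 163 CPM in HFD with STZ, 44.2 ± 16.7 CPM in HFD and 33.1 ± 18.9 CPM in ND libraries (log2 change against ND 2.62, SE 0.50, adjusted p 0.0285). The Gata6 call was lost without any library but HFD with STZ 1 and 2 and ND 2 (adjusted p 0.0533 to 0.127), and the Mrc1 call without any HFD with STZ or ND library of cohorts 3 to 5 (0.0707 to 0.103). The 5 adipose macrophage markers summed to 133, 255.4, 1147, 822.2 and 1394 CPM in HFD with STZ of cohorts 1 to 5, against 125.8 to 194.3 CPM in HFD and 98.8 to 142.7 CPM in ND libraries. The 5 peritoneal markers summed to 10540, 11624, 6724, 8864 and 6173 CPM in HFD with STZ, 12380 to 13929 CPM in HFD and 9269 to 14498 CPM in ND libraries. Cohorts 3 to 5, where these sums departed most, were also those in which the mitosis score of HFD with STZ exceeded ND by more than 1. Against HFD, the mitosis score of HFD with STZ was also higher in cohorts 1 and 2, by 0.68 and 0.35. In cohort 1 the adipose sum lay within the HFD range and the peritoneal sum below it. In cohort 2 both sums lay outside the HFD range. Monocyte markers summed to 400.2 to 670.1 CPM in HFD with STZ, 147.3 to 226.9 CPM in HFD and 150.5 to 267.6 CPM in ND libraries, of which Ly6c2, the defining one, gave at most 1.11 CPM in HFD with STZ, 0.58 CPM in HFD and 2.62 CPM in ND. The part of a different mix of macrophages in the members' values was not tested.

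Beyond the 39 genes, 5 pathway genes passed the test in HFD with STZ against ND. Cdc25b, the phosphatase that switches on Cdk1, averaged 67.5 ± 21.8 CPM in HFD with STZ, 29.1 ± 8.4 CPM in HFD and 25.4 ± 11.1 CPM in ND libraries (log2 change against ND 1.46, SE 0.26, adjusted p 0.02). Aspm, a protein of the spindle poles, rose to 20.5 ± 9.5 CPM in HFD with STZ, against 9.70 ± 4.20 CPM in HFD and 6.54 ± 2.42 CPM in ND libraries (1.54, SE 0.28, adjusted p 0.023). Incenp, the scaffold of the chromosomal passenger complex (0.93, SE 0.20, adjusted p 0.045), and Chaf1a, which loads histones behind the fork (1.22, SE 0.27, adjusted p 0.0474), rose as well. Cdkn2a, whose products p16 and p19ARF block cycle entry in mice, had 0.999 ± 0.700 CPM in HFD with STZ, 7.16 ± 1.87 CPM in HFD and 5.44 ± 2.09 CPM in ND libraries. Its log2 change was -2.51 against ND (SE 0.48, adjusted p 0.0285) and -2.93 against HFD (SE 0.49, adjusted p 0.0635), and HFD with STZ overlapped neither other group. Each of these calls depended on single libraries, although no log2 change turned its sign. The call of Cdc25b was lost without HFD with STZ library 4 or 5 or ND library 4 or 5 (adjusted p 0.0595 to 0.0821), that of Aspm without HFD with STZ library 4 or 5 or ND library 4 (0.0718 to 0.0745), and that of Cdkn2a without HFD with STZ library 5, HFD library 1 or ND library 1 or 5 (0.0522 to 0.0888). Chaf1a was lost without any library but HFD with STZ 2 and ND 2 (0.0704 to 0.156), and Incenp without any but HFD with STZ 2 and 3 and ND 2 and 3 (0.0725 to 0.157).

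By list, the 5 were 3 of 52 other mitosis genes, 1 of 39 other replication genes, 1 of 22 brakes and 0 of 18 G1 cyclins, kinases and E2F factors, against 1.29% of all genes. Among 12 regulators of self-renewal, 1 passed, the Gata6 described above. Other mitosis genes had a median log2 change of 0.78, with 51 of 52 higher, and other replication genes one of 0.24, with 30 of 39 higher. Ccnd1 went the other way, at 185.5 ± 50.4 CPM in HFD with STZ, 289.7 ± 15.2 CPM in HFD and 312 ± 74.2 CPM in ND libraries, and missed the threshold (log2 change against ND -0.77, SE 0.18, adjusted p 0.0559).

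Islet macrophages and microglia of the same diets had 0 members called in all 6 comparisons by edgeR's quasi-likelihood test (0% of all genes). DESeq2 called 1 to 4 members there, with its share of all genes not given here. In islets, where 38 members were tested, an unadjusted p below 0.05 was reached by 2 for HFD with STZ against ND (5.66% of all genes), 1 for HFD with STZ against HFD (4.99%) and 1 for HFD against ND (2.42%). In microglia, where 30 were tested, it was reached by 4 for HFD with STZ against ND (2.15%), 6 for HFD with STZ against HFD (4.77%) and 1 for HFD against ND (3.16%). Islet mitosis scores averaged 1.95 ± 0.42 in HFD with STZ (n = 3), 1.95 ± 0.91 in HFD (n = 4) and 1.54 ± 0.75 in ND (n = 4), and S-phase scores 4.15 ± 0.61 in HFD with STZ, 4.25 ± 1.25 in HFD and 4.16 ± 0.44 in ND. The highest HFD and ND islet libraries, both of cohort 5 (mitosis scores 3.20 and 2.31), carried plasma cell markers of 1901 and 1208 CPM. Without them the HFD mean was 1.54 ± 0.45 and the ND mean 1.28 ± 0.66 (n = 3 each).

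Mki67 in islets had 46.8, 53.9 and 66.5 CPM as its lowest, median and highest value in HFD with STZ, 8.397, 47.6 and 77.997 CPM in HFD and 8.53, 54.8 and 107.1 CPM in ND. Its groups overlapped throughout.

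Microglia mitosis scores averaged 0.57 ± 0.18 in HFD with STZ, 1.03 ± 0.58 in HFD and 0.59 ± 0.20 in ND (n = 4 each), and S-phase scores 2.79 ± 0.24 in HFD with STZ, 3.15 ± 0.20 in HFD and 3.01 ± 0.28 in ND. The HFD mean rested on library 3, with a mitosis score of 1.89 against 0.61 to 0.82 in the other HFD libraries and neutrophil markers of 2032 CPM. Neutrophil markers also reached 1105 CPM in HFD library 2, and without both the HFD mean was 0.70 ± 0.13 (n = 2). Further edgeR quasi-likelihood tests asked whether an effect differed among peritoneal macrophages, islet macrophages and microglia. For STZ on top of HFD, 0 of 39 members were called, against 0.708% of all genes. For HFD, 0 were called, against 0.308% of all genes. An unadjusted p below 0.05 was reached by 10 of 39 members for STZ and by 4 of 39 for HFD. The share of all genes at that level was not computed, so these counts cannot be set against other genes. That the peritoneal pattern is particular to these cells is therefore not shown.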

How the data were processed

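Whole-number read counts per gene were deposited by the authors as 2 tables, one for refeeding (110 libraries) and one for diet (37). Per the submitters' processing notes, Trimmomatic 0.36, STAR 2.5.1a, featureCounts and mm10 were used. The sources used here name no annotation release, strand setting or rule for multimapping reads. Of 50686 gene IDs 50376 had a symbol, and 11 members overlap exons of other genes.

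The members and lists were chosen with earlier results of these data known. Counts were tested with edgeR 4.0.16 (R 4.3.3; TMM scaling, filterByExpr, robust quasi-likelihood F test, Benjamini-Hochberg adjustment over all genes tested, threshold 0.05) with cohort as a term. CPM use TMM-scaled library sizes, marker sums unscaled ones, and SE is the log2 change over the square root of F. Alternatives were another scaling (RLE), no filter on low counts, DESeq2 1.42.0, limma 3.58.1 with voom quality weights, the replicate block, no cohort term, libraries left out, and pseudocounts of 0.1 and 5 or the median for scores (main pseudocount 1). All members could be named, with Mki67, Top2a, Cdk1, Mcm2, Pcna and Rrm2 as standing examples and pathway-list genes where they passed; 1 pathway-list gene is not reported here.

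Libraries of 1 group are not stated to be separate mice, so p-values measure the spread between libraries, which may be technical; 0 of 443 same-group pairs were identical. In peritoneal and islet diet libraries the replicate number is the labelled cohort, which pairs the samples, and is in the model (deviations correlated above 0.1 in 9 of 13 peritoneal and 2 of 10 islet pairs). Tested on simulated data, the model recovered 49.5% of genes changed by a log2 of 1 and 93.3% of those changed by 2 for HFD with STZ over HFD in peritoneal macrophages (12936 genes), and 0.917% and 23.5% for peritoneal over microglia in fasted mice (15758 genes).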

Additional observations from a re-analysis of the deposited data

Results flagged for a closer look

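Of 176 combinations of a group and a quantity (the mitosis score, the S-phase score, and the CPM of Mki67, Top2a, Cdk1, Mcm2, Pcna and Rrm2), 30 had a library whose gap to the nearest other library passed Dixon's critical value. Chance flags about 1 in 20 groups, and sparse genes with reads in 1 library of a group pass easily.

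In peritoneal macrophages, Top2a stood at 250.1 CPM in HFD with STZ library 5 (others 136.4 to 157.8 CPM), Pcna at 87.17 CPM in HFD library 5 (others at most 81.39 CPM) and Top2a at 60.68 CPM in refed library 2 (others at most 27.6 CPM). In colonic macrophages, refed library 8 had 48.84 CPM of Cdk1 and 71.29 CPM of Rrm2, and fasted library 5 had 87.67 CPM of Cdk1. Both carried intestinal epithelium markers above 1000 CPM. In adipose macrophages, Cdk1 was 34.91 CPM in refed library 1 and Rrm2 was 12.98 CPM in fasted library 4. Rrm2 was 13.39 CPM in fasted Kupffer library 4.

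In islet macrophages, Rrm2 was 29.35 CPM in refed library 1_2 and 7.515 CPM in fasted library 3, and Cdk1 was 14.78 CPM in fasted library 5_6 and 27.02 CPM in ND library 3. In monocytes, Cdk1 was 5.495 CPM in refed library 7, and the S-phase score of fasted library 3 was 1.91, below 2.71 to 3.33 in the others.

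Refed microglia library 5, with neutrophil and B cell markers, had 282.6 CPM of Pcna (others at most 121 CPM) and 0.8426 CPM of Mki67, and refed library 1 had 32.64 CPM of Top2a. Fasted microglia library 1 had 96.3 CPM of Mcm2 and 28.64 CPM of Rrm2, and fasted library 6 had 10.54 CPM of Top2a. In diet microglia, HFD with STZ library 9 had 3.381 CPM of Top2a, library 15 had 8.017 CPM of Mcm2, library 4 had 135.4 CPM of Pcna and library 13 had 0.9856 CPM of Rrm2. HFD library 3 had a mitosis score of 1.89 and 4.819 CPM of Rrm2. ND library 18 had 5.825 CPM of Top2a, and ND library 5 had 5.949 CPM of Cdk1 and 1.118 CPM of Rrm2.

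The refeeding effect differed among the 7 populations by edgeR's quasi-likelihood interaction test for Cenpe (adjusted p 0.01506) and Uhrf1 (adjusted p 0.02333), both sparse.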

How the results depend on the processing

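No called result changed direction under the alternatives run. Score differences, which have no test, changed sign in 45 of 368 runs without 1 library and in 17 of 142 other settings, among those no larger than 0.41 in size. Of the counts of called members, 4 of 145 moved by over 1.5 times when 1 library was left out and 47 of 233 under other settings; scores moved in 8 of 142 other settings and in 0 of 368 without 1 library. DESeq2 called on refeeding 1 adipose, 1 monocyte, 1 microglia, 3 colonic, 4 islet and 2 Kupffer members against 0 by edgeR, and with no filter colonic gave 1. For HFD with STZ over ND in peritoneal macrophages, no filter gave 12, DESeq2 17, voom quality weights 16, no replicate block 2, and leaving out 1 library 0 to 5 against 0 (5 without HFD with STZ library 2, 4 without ND library 2, 1 without HFD with STZ library 1 or ND library 1). For HFD with STZ over HFD there, no filter gave 2, DESeq2 1 and voom 5. DESeq2 called 4 (HFD over ND), 2 (HFD with STZ over ND) and 2 (HFD with STZ over HFD) in islets and 1, 2 and 4 in microglia. With no filter, members differing among populations were 27 refed and 32 fasted, and the refeeding interaction had 11. Among refed pairs, adipose against microglia had 9 with no filter, 8 by DESeq2, 8 with the replicate block and 9 without libraries above 1000 CPM of intestinal epithelium, neutrophil or B cell markers, and adipose against colonic had 1 with the block. Adipose against peritoneal had 1 with no filter and 1 with the block, monocyte against colonic 17 with no filter and 3 without those libraries, and monocyte against peritoneal 17 with no filter. Microglia against colonic had 9 with no filter and 10 by DESeq2, colonic against peritoneal 2 by DESeq2 and 6 without those libraries, and islet against peritoneal 11 with no filter and 11 by DESeq2. Among fasted pairs, adipose against colonic had 1 with no filter, 2 by DESeq2 and 1 with the block, and adipose against peritoneal 2 by DESeq2 and 2 with the block. Monocyte against microglia had 5 with the block, and islet against peritoneal 14 with no filter and 16 by DESeq2. In the refeeding experiment the replicate number is not the labelled cohort. Deviations of same-numbered libraries there correlated with a mean from -0.00311 in peritoneal to 0.0679 in islet libraries. The mean was 0.0534 in diet islet libraries, so this correlation does not tell paired from unpaired numbering in islets. With the replicate block, edgeR's quasi-likelihood test of refeeding in peritoneal macrophages gave adjusted p 0.163 for Ccnd3 and 0.163 for Bhlhe40. With medians in place of means, the S-phase difference was -0.98 for HFD over ND (0.08 with means) and 0.98 for HFD with STZ over HFD (-0.10 with means) in islets, and in microglia -0.73 for HFD with STZ over ND and -0.65 for HFD with STZ over HFD, where the mitosis one was -0.22 for HFD with STZ over ND. With a pseudocount of 0.1, microglia differed by 0.98 (mitosis, HFD over ND), -1.18 (mitosis, HFD with STZ over HFD) and -0.59 (S-phase, HFD with STZ over HFD). Alternatives without libraries rich in markers of other cells were chosen after seeing the data. The causes of these changes were not tested. Shares of all genes called under these settings are not given here, so the counts do not set the members apart from other genes. Single calls in HFD with STZ over ND were lost without 12 single libraries for Chaf1a, 11 for Gata6 and 10 for Incenp, without 4 each for Cdc25b and Cdkn2a and without 3 for Aspm. In the refeeding libraries, from 400 cells each, many members had reads in few libraries, and a count of 0 calls does not show that their levels were equal.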
